A study of Mus musculus with 33 samples.

Results

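The comparison described here sets the postnatal day 6 libraries titled mTEC2 against the day 6 libraries titled mTEC1, 2 libraries against 2, which is 4 of the 33 libraries of the series. The libraries were chosen by title alone, and every gene of the deposited table was considered. Both groups hold sorted thymic epithelial cells (TEC) of wild-type C57BL/6 mice at day 6 after birth, and no transgene or treatment is named for them. The other TEC libraries are wild type and C57BL/6 as well: those of embryonic days 15 and 17 (2 each), a further day 6 population titled mTEC4 (2), and those of 6 weeks titled cTEC and mTEC1 to mTEC4 (4 each). A further 3 libraries are titled HFC, which the study describes as sorted from Foxn1 EGFP mice. RNA was measured by bulk MARS-seq, which reads the 3' ends of transcripts and uses a random tag per molecule, a unique molecular identifier (UMI), so that copies of one molecule count once. The sources used here give no sort gates, no number of mice and no word on pooling. Nothing states that libraries of a group came from separate mice, so the p-values measure only a spread between libraries, which may be technical. That spread was estimated over the embryonic and day 6 libraries together, not from the compared libraries alone.

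Thymic epithelium builds the compartments in which T cells mature. Cortical TEC, under the transcription factor Foxn1, draw in progenitors and display the self-peptides that positive selection needs, while medullary TEC (mTEC) display tissue antigens that purge self-reactive T cells. Within the medulla, Aire drives promiscuous expression of tissue-restricted genes, and further mTEC take on the programs of peripheral cells, among them tuft cells (chemosensory cells with a taste-like signalling cascade), muscle-like, microfold, secretory, ciliated and keratinized cells. A widely used naming of mTEC subsets from single-cell work calls Ccl21a-expressing cells mTEC I, Aire-expressing cells mTEC II, keratinized cells mTEC III and tuft cells mTEC IV. The labels do not say that the titles follow that naming.

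The markers did not follow that naming in the day 6 libraries. Tuft genes were highest in the libraries titled mTEC2 and no higher in those titled mTEC4 than in those titled mTEC1, and Aire was highest in those titled mTEC1, which also held the most cortical transcripts. Epcam and the simple epithelial keratins Krt8 and Krt18 were present in all 4 libraries, as the epithelial label asks. The groups are therefore called by their titles, with no cell type read from a title. The mTEC1 libraries held 638343 and 570253 UMIs and the mTEC2 libraries 324952 and 334581, so 3 UMIs over a group, used as the floor for a gene with none, equal 2.48 UMIs per 1000000 (CPM) in mTEC1 and 4.55 CPM in mTEC2. Between the mTEC1 libraries 18.9% of the 10228 tested genes lay 2-fold or more apart, and between the mTEC2 libraries 46.0% did. Markers of endothelium also differed between the groups: their summed level was 359.5 to 377.5 CPM in mTEC1 and 1979 to 7723 CPM in mTEC2.

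A gene was tested where at least 2 of the 4 libraries held 5 or more normalized UMIs, and called where limma's moderated test gave a Benjamini-Hochberg adjusted p below 0.05 over all tested genes. Differences are mTEC2 minus mTEC1 on the log2(normalized UMI + 1) scale and are given ± SE; for genes with few UMIs this scale makes a change look smaller than it is. Of 10228 genes, 399 (3.9%) were higher in mTEC2 and 393 (3.84%) were lower, 7.74% in all. The median difference over all tested genes was -0.05. The called differences were large, with a median of 3.08 among the higher genes and a size of 2.65 among the lower ones. None of the called genes had overlapping libraries, while of all tested genes 23.6% lay wholly above in mTEC2 and 21.9% wholly below. With trimmed-mean scaling, which moved the median of all genes to -0.21, 8.17% were called, 315 higher and 504 lower, so the higher share of the calls went from 50.4% to 38.5%. All these calls rest on a spread shared with the embryonic and mTEC4 libraries. The mTEC2 libraries lay further apart than the mTEC1 libraries, so a shared spread may be too small for them. With the 4 compared libraries fitted alone, 28 genes were called, 22 higher and 6 lower. That fit has fewer libraries from which to estimate the spread. In bulk RNA, fewer cells of a type and less RNA per cell cannot be told apart, here and in every result that follows.

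**Figure D1:**
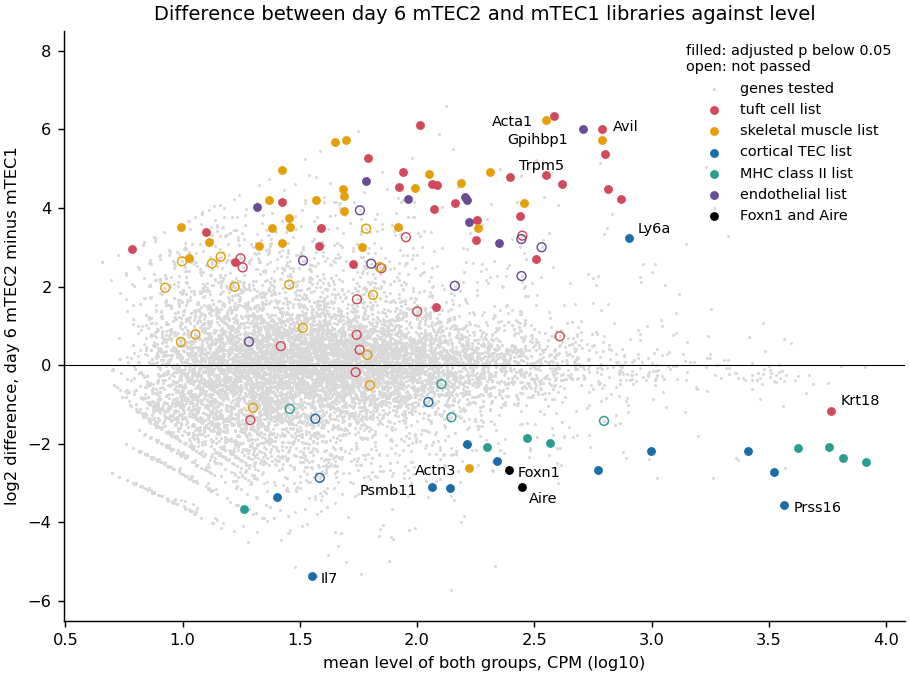
Log2 difference between titled mTEC2 and titled mTEC1 at day 6 (vertical axis) against the mean level over the 4 libraries (log10 CPM, horizontal axis), 1 point per tested gene, with gene lists coloured and called genes filled. Tuft and muscle genes lie mostly above 0, cortical and MHC class II genes mostly below it, and Foxn1 and Aire, in black, lie at -2.67 and -3.09.

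Leaving out any of the 4 libraries changed which genes passed, as each such fit leaves 1 library on a side, assumed to vary like the other groups. Over all genes tested there, 2.69% were called without mTEC1 library 1, 1.17% without mTEC1 library 2, 25.4% without mTEC2 library 1 and 7.31% without mTEC2 library 2. Of the 399 higher genes, 129 still passed without mTEC1 library 1, 70 without mTEC1 library 2, 206 without mTEC2 library 1 and 140 without mTEC2 library 2, although 176 of them could not be tested once an mTEC2 library was gone, since too few libraries then reached the minimum level. Of the 393 lower genes, 94, 37, 388 and 280 still passed in the same order, and 156 could not be tested without an mTEC1 library. In all 4 such fits 23 higher and 37 lower genes passed. Genes that reached the minimum level in 1 group alone could be called in 1 direction only, so list counts that rest on them are descriptions.

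Tuft cell genes formed the first group that was higher in mTEC2. Of 58 listed genes, 55 were in the table and 42 passed the level filter. Of these 42, 28 were higher and 1, Krt18, was lower, against 3.9% and 3.84% of all tested genes. The median difference of the tested members was 3.35. Among the 28, 11 reached the minimum level in mTEC2 alone, so the filter fixed their direction. The summed level of the listed genes without Krt18 was 952.5 and 1226 CPM in the mTEC1 libraries and 17380 and 10720 CPM in the mTEC2 libraries. It was 1047 and 950.6 CPM in mTEC4, and between 399.7 and 564.8 CPM in the 4 embryonic libraries. The 13 genes below the filter included Gnat3, the taste G protein alpha subunit gustducin, with 132 CPM in mTEC2 library 1 and none in library 2. Dclk1, a kinase commonly used to mark tuft cells, was also below it, with 4.70 and 3.51 CPM in mTEC1 and 114 and 0 CPM in mTEC2.

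The taste-like cascade runs from receptors and G proteins through phospholipase C and the inositol trisphosphate receptor to the cation channel Trpm5. Gng13, the G protein gamma subunit of taste cells, had 12.5 and 56.1 CPM in mTEC1 and 1542 and 915 CPM in mTEC2 (log2 difference 5.37 ± 0.79, limma adjusted p = 0.00445). Its partner Gnb3, a beta subunit, had 31.3 and 91.2 CPM against 1416 and 1076 CPM (4.48 ± 0.72, limma adjusted p = 0.00683). Plcb2, the phospholipase of the pathway, had 6.27 and 10.5 CPM against 240 and 230 CPM (4.58 ± 1.04, limma adjusted p = 0.0258). For these 3 genes the lowest mTEC2 library stood many times above the highest mTEC1 library. Trpm5 (chr7:143069153-143094642, minus strand, GRCm38), the calcium-activated channel at the end of the cascade, had 7.83 and 29.8 CPM in mTEC1, 505 and 451 CPM in mTEC2, and 0 and 3.48 CPM in mTEC4. Its difference was 4.78 ± 0.80 (limma adjusted p = 0.00776), and without mTEC1 library 1 the adjusted p was 0.0578. The groups did not overlap for Trpm5, whose locus overlaps Tssc4 on the other strand. The strand setting of the counting is not stated, so reads of overlapping genes, here and below, may not be told apart; Tssc4 itself differed by -0.17 ± 0.34. Tas1r1, an umami receptor subunit, was also higher (3.50). In all, 3 of 4 tested receptor and G protein genes and 5 of 6 tested signalling enzymes and channels were higher, the phosphoinositide enzymes Pik3r5 (4.14) and Inpp5d (2.57) among them.

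Itpr3 (chr17:27057304-27122223, plus strand), the inositol trisphosphate receptor that releases calcium ahead of Trpm5, changed less. It had 65.8 and 59.6 CPM in mTEC1 and 185 and 173 CPM in mTEC2, with each group's libraries close together (1.49 ± 0.28, limma adjusted p = 0.0131). Without mTEC1 library 1 or 2 the adjusted p was 0.0567 or 0.0984. Its promoter is shown because it holds an octamer, ATGCAAAT, the motif bound by POU factors such as Pou2f3, the transcription factor that tuft cells require. The window is chr17:27057054-27057353 on the plus strand of GRCm38.p6 (RefSeq), from 250 bases before to 50 after the gene's start, and capitals mark the octamer, whose first base lies 27 bases before the start.
Itpr3: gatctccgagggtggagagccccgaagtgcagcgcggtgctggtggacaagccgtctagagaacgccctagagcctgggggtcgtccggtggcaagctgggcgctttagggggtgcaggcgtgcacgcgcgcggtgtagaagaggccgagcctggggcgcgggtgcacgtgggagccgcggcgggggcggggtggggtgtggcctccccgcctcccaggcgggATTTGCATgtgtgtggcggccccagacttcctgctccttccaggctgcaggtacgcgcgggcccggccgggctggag
The octamer, searched on both strands, was in 5 of 49 tuft promoters (10.2%), those of Itpr3, Ly6g6d, Tas2r108, Sucnr1 and Hpgds, of which Itpr3 and Ly6g6d were called; for a gene with several listed starts the first window was read. Over all 27025 promoters it was in 474 (1.75%). A match describes these letters only.

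The transcription factors of the tuft list behaved unevenly. Ovol3, a zinc finger factor found in tuft cells, had 25.1 and 38.6 CPM in mTEC1, 868 and 732 CPM in mTEC2 and 5.18 and 3.48 CPM in mTEC4. Its difference of 4.60 ± 0.61 (limma adjusted p = 0.00307) passed under all 16 alternative settings. Gfi1b, a repressor best known from blood cells, was higher as well (2.64 ± 0.60). Pou2f3 did not pass: it had 6.27 and 0 CPM in mTEC1 and 55.4 and 8.97 CPM in mTEC2 (2.72 ± 0.94, limma adjusted p = 0.113). Sox9 (1.68 ± 0.72) and Ascl2 (0.49 ± 0.75) did not pass either, each with 1 high and 1 low mTEC2 library.

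Among cytoskeletal genes, Avil (chr10:127000709-127020994, plus strand), which encodes the actin-binding protein advillin of the tuft cell brush, had 6.27 and 42.1 CPM in mTEC1 and 1289 and 1115 CPM in mTEC2. In mTEC4 it had 7.78 and 3.48 CPM. The difference of 6.00 ± 0.86 (limma adjusted p = 0.00403) held in each fit that left out a library. Avil overlaps Tsfm on the other strand, which differed by 0.07 ± 0.48. The microvillus genes Vil1 (4.15) and Espn (3.19) were also higher, while Krt18, a keratin that tuft cells share with all simple epithelium, fell from 7147 and 9019 CPM in mTEC1 to 4031 and 3198 CPM in mTEC2 (-1.16 ± 0.23, limma adjusted p = 0.0141).

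Kinases and adaptors included the largest difference of the list, with 8 of 10 tested genes higher. Sh2d6 (chr6:72513641-72521707, minus strand), an SH2-domain adaptor, had 7.83 and 7.01 CPM in mTEC1, 908 and 610 CPM in mTEC2 and 2.59 and 0 CPM in mTEC4 (6.35 ± 0.72, limma adjusted p = 0.00169). Its relative Sh2d7, which overlaps Cib2, had 3.13 and 0 CPM against 175 and 233 CPM (6.12 ± 0.81). Lrmp, an endoplasmic reticulum protein that binds inositol trisphosphate receptors and overlaps Casc1, had 58.0 and 91.2 CPM against 1665 and 1157 CPM (4.22 ± 0.46). Ptpn6, a phosphatase of blood cells that tuft cells also express, was already present in mTEC1, at 76.8 and 91.2 CPM, and stood at 511 and 604 CPM in mTEC2 (2.71 ± 0.31). Lrmp and Ptpn6 passed under all 16 alternatives. The tyrosine kinases Bmx (4.93) and Matk (4.85) and the exchange factor Vav1 (3.39) were higher too, while Fyb and Skap2 did not pass.

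Enzymes that make leukotrienes and prostaglandins, lipid mediators that tuft cells release, were higher in 4 of 5 cases. Alox5, which opens leukotriene synthesis, had 4.70 and 10.5 CPM in mTEC1 and 277 and 170 CPM in mTEC2 (4.62 ± 0.91, limma adjusted p = 0.0145). Ltc4s, a leukotriene synthase, had 50.1 and 21.0 CPM against 705 and 326 CPM (3.81 ± 0.60, limma adjusted p = 0.00613). Alox5ap (3.69) and Ptgs1 (3.04) were higher as well, and Pla2g4a did not pass (-1.40 ± 1.19).

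Of 6 tested effector and surface genes, 3 were higher. Il25, the cytokine by which intestinal tuft cells start type 2 immunity, had 3.13 and 3.51 CPM in mTEC1 and 280 and 47.8 CPM in mTEC2, with none in either mTEC4 library (4.54 ± 0.86, limma adjusted p = 0.0127). The groups did not overlap, but the call of Il25 was lost or could not be tested without any 1 library. Ly6g6d, a surface protein gene that overlaps Ly6g6e, had 0 and 3.51 CPM against 163 and 80.7 CPM (5.26 ± 0.75). Chat, which makes acetylcholine and shares its locus with Slc18a3, had no UMI in mTEC1 and 15.4 and 8.97 CPM in mTEC2, at least 4.89-fold higher over the group floor. Cd24a showed how far the mTEC2 libraries differ from each other: it had 113 and 121 CPM in mTEC1 but 1363 and 26.9 CPM in mTEC2 (0.74 ± 1.28, limma adjusted p = 0.78). Nrgn (3.30 ± 0.89, adjusted p = 0.0504) and Il17rb, the receptor of Il25 (2.49 ± 0.79), did not pass. Of the 28 higher tuft genes, 13 and 11 passed without mTEC1 library 1 and 2, and 17 and 15 without mTEC2 library 1 and 2, where 11 could not be tested.

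**Figure D2:**
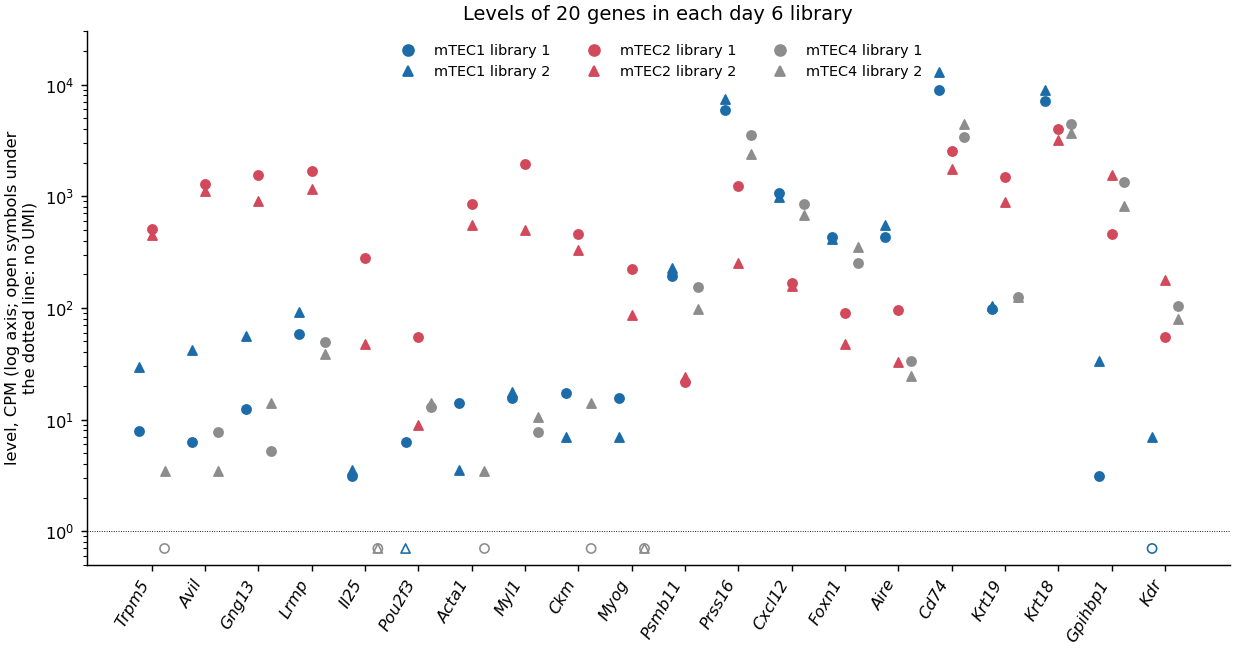
Level of 20 genes (CPM, log axis) in the 6 day 6 libraries, grouped by title, with circles for library 1 and triangles for library 2 and open symbols under the dotted line for libraries without a UMI. The tuft and muscle genes are highest in mTEC2, Psmb11, Prss16, Cxcl12, Foxn1 and Cd74 are lowest there, and Gpihbp1 and Kdr are high in both mTEC2 and mTEC4.

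Skeletal muscle genes were the second group that was higher in mTEC2. Muscle-like cells have long been described in the thymic medulla, where they display muscle proteins. Of 54 listed genes, 49 were in the table and 42 were tested. Of these 42, 26 were higher and 1, Actn3, was lower, against 3.9% and 3.84% of all tested genes. Among the 26, 16 reached the minimum level in mTEC2 alone, so the filter fixed their direction. The median difference of the tested members was 3.48, or 3.31 with genes absent from a group set at their bound. Their summed level was 706.7 to 809.9 CPM in mTEC1, 4450 to 7380 CPM in mTEC2, 390.0 to 443.3 CPM in mTEC4 and 440.4 to 704.8 CPM in the embryonic libraries. Both mTEC2 libraries lay above all others of day 6 and of the embryo.

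The regulators of myoblast fusion were among the higher genes. Myog (chr1:134289989-134292548, plus strand), the transcription factor myogenin that drives terminal differentiation, had 15.7 and 7.01 CPM in mTEC1, 222 and 86.7 CPM in mTEC2 and none in mTEC4 (3.51 ± 0.72, limma adjusted p = 0.0179; 0.156 without mTEC1 library 2). Mymk and Mymx, the membrane proteins that fuse myoblasts, were higher by 4.21 ± 0.96 and 4.51 ± 1.15. Myod1, the determination factor that precedes myogenin, had no UMI in either mTEC1 library and 0 and 2.99 CPM in mTEC2, below the filter. Mef2c, which acts with myogenin, did not pass (2.64 ± 0.74, limma adjusted p = 0.0558).

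Of 23 tested sarcomere genes, 14 were higher and 1 lower. Acta1 (chr8:123891769-123894751, minus strand), skeletal muscle alpha-actin, had 14.1 and 3.51 CPM in mTEC1, 846 and 553 CPM in mTEC2 and 0 and 3.48 CPM in mTEC4. Its difference of 6.23 ± 0.78 (limma adjusted p = 0.00256) passed under all 16 alternatives and without each library. Myl1, a fast-fibre myosin light chain, had 15.7 and 17.5 CPM against 1930 and 493 CPM (5.74 ± 0.68, limma adjusted p = 0.00193). Both genes separated the groups widely although the mTEC2 libraries of Myl1 were themselves several-fold apart. Myh8, the perinatal myosin heavy chain, had no UMI in mTEC1 and 61.5 and 137 CPM in mTEC2, at least 40.3-fold higher. Adult fast myosin Myh1 was also higher (3.74), whereas Myh4 did not pass, and the embryonic Myh3 was below the filter, with 6.15 and 65.8 CPM in mTEC2 and no UMI in mTEC1 or mTEC4. The fast troponins Tnnt3 (4.88) and Tnnc2 (4.64, overlapping Ube2c), the slow or cardiac troponins Tnnc1 (4.50) and Tnnt1, the light chain Mylpf (4.13) and desmin, Des (3.49), were higher too. Actn3, a fast-fibre Z-disc actinin, went the other way, with 295 and 277 CPM in mTEC1 and 67.7 and 29.9 CPM in mTEC2 (-2.62 ± 0.46, limma adjusted p = 0.00909). Tropomyosin Tpm2 did not pass (-0.51 ± 0.44).

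Calcium handling genes were higher in 6 of 8 tested cases. Sln, an inhibitor of the sarcoplasmic calcium pump, had no UMI in mTEC1 and 108 and 71.7 CPM in mTEC2, at least 36.0-fold higher. Ryr1, the calcium release channel, had no UMI in mTEC1 and 49.2 and 56.8 CPM in mTEC2, at least 21.4-fold higher. The pump Atp2a1 (4.30) and the calcium channel subunit Cacng1 (4.20) were higher as well. In energy metabolism 3 of 5 genes were higher: Ckm, muscle creatine kinase, had 17.2 and 7.01 CPM in mTEC1 and 462 and 332 CPM in mTEC2 (4.93 ± 1.05, limma adjusted p = 0.0204), followed by myoglobin Mb (3.51) and the phosphorylase Pygm (3.05). The acetylcholine receptor subunits Chrng (1.97 ± 1.07) and Chrnb1 (0.79 ± 0.65) did not pass. Of the 26 higher muscle genes, 14 and 7 passed without mTEC1 library 1 and 2, and 9 and 10 without mTEC2 library 1 and 2, where 16 could not be tested; edgeR, which called 4.13% of all genes, called 15 muscle genes higher.

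Promoters of 3 muscle genes are shown because their genes differed strongly and each holds the E-box CAGCTG, the form of E-box that myogenic factors such as myogenin bind. Each window runs from 250 bases before to 50 after the gene's start in RefSeq on GRCm38.p6, with the E-box in capitals. They are Acta1 (chr8:123894726-123895025, minus strand, E-box 221 bases before the start), Myl1 (chr1:66945007-66945306, minus strand, 224 bases before) and Ckm (chr7:19410844-19411143, plus strand, 249 bases before).
Acta1: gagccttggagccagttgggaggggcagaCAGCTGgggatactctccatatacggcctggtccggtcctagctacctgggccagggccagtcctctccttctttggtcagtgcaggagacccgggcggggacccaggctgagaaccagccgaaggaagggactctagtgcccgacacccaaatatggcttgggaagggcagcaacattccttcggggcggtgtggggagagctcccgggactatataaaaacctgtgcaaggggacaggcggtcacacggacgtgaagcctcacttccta
Myl1: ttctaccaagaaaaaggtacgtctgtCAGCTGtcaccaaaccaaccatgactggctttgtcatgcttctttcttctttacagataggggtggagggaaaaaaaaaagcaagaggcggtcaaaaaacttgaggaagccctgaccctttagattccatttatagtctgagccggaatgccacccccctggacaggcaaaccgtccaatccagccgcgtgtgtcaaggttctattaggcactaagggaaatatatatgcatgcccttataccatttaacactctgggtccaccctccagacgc
Ckm: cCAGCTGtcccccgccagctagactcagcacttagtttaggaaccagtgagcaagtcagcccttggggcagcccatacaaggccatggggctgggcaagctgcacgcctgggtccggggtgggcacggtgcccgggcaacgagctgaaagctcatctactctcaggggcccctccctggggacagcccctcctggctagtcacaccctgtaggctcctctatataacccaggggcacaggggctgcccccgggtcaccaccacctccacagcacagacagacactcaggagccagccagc
The motif, which reads the same on both strands, was in 19 of 38 muscle promoters, in 10 of 21 promoters of the muscle genes that were higher (47.6%) and in 4353 of all 27025 promoters (16.1%). Among all genes higher in mTEC2 the share was 21.6%, among those lower 19.5%, and among all tested genes 15.0%. These are shares of windows that hold the letters and say nothing of binding.

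**Figure D3:**
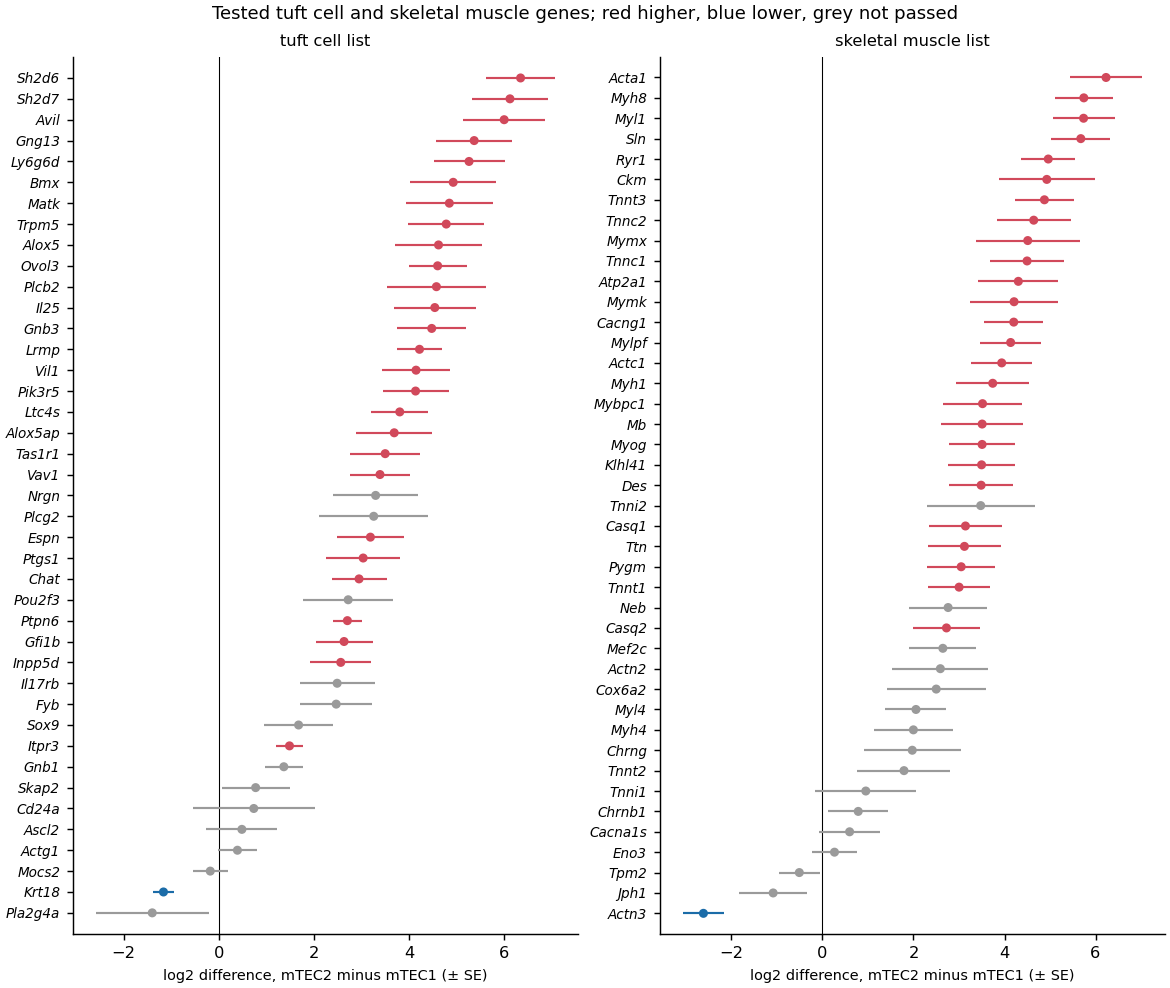
Log2 difference of titled mTEC2 minus titled mTEC1 for tested tuft and skeletal muscle genes, with bars of 1 SE; red marks genes called higher, blue genes called lower and grey genes that did not pass. Krt18 in the tuft panel and Actn3 in the muscle panel are the called genes below 0.

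Foxn1 (chr11:78357577-78386558, minus strand), the factor that directs TEC differentiation, was lower in mTEC2. It had 434 and 416 CPM in mTEC1, 89.2 and 47.8 CPM in mTEC2 and 251 and 348 CPM in mTEC4. The groups did not overlap, and the difference of -2.67 ± 0.32 (limma adjusted p = 0.00193) held without each library. Of 11 genes reported as Foxn1 targets in TEC, all tested, 9 were lower and none higher, against 3.84% and 3.9% of all tested genes. The remaining Ackr4, a scavenger of chemokines, and Kitl, stem cell factor, did not pass (-0.94 ± 0.34 and -2.86 ± 1.14). Of the 9 lower targets, 7 and 3 passed without mTEC1 library 1 and 2, and 9 without either mTEC2 library; 2 passed with the 4 compared libraries fitted alone.

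Cortical genes overlap that list and moved alike. Of 18 listed genes 15 were tested, of which 11 were lower and 1 higher (median -2.66), against 3.84% and 3.9% of all tested genes. Their summed level was 18380 to 23380 CPM in mTEC1, 3599 to 6078 CPM in mTEC2, 6658 to 11450 CPM in mTEC4 and 10630 to 14200 CPM in the embryonic libraries. Psmb11 (chr14:54621433-54629556, plus strand), the thymoproteasome subunit of cortical TEC, had 193 and 226 CPM in mTEC1, 21.5 and 23.9 CPM in mTEC2 and 153 and 97.5 CPM in mTEC4. Its difference was -3.11 ± 0.30 (limma adjusted p = 0.00101), with libraries of each group close together. Prss16, the thymus-specific serine protease, had 5857 and 7398 CPM against 1243 and 251 CPM (-3.55 ± 0.57, limma adjusted p = 0.00683; 0.0834 without mTEC1 library 2). Ctsl, the cathepsin of cortical peptide processing, had 43.9 and 50.9 CPM against 3.08 and 2.99 CPM (-3.36 ± 0.57). All 3 proteases were thus lower, as a group without overlap.

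The signals by which cortical TEC attract and feed progenitors were lower as well. Il7 (chr3:7569994-7613760, minus strand), the growth factor of early thymocytes, had 58.0 and 84.2 CPM in mTEC1, no UMI in either mTEC2 library and 111 and 55.7 CPM in mTEC4. It was at least 15.5-fold lower in mTEC2 than in mTEC1 over the group floor (limma adjusted p = 0.000841). Cxcl12, a chemokine for progenitors, had 1057 and 989 CPM in mTEC1 and 166 and 155 CPM in mTEC2 (-2.66 ± 0.25, limma adjusted p = 0.00101), a call kept under all 16 alternatives. Ccl25, a further such chemokine whose locus overlaps Elavl1, had 3305 and 5152 CPM against 1080 and 759 CPM (-2.19 ± 0.40). Dll4, the Notch ligand that commits progenitors to the T lineage and overlaps Gm14207, had 177 and 354 CPM against 61.5 and 59.8 CPM (-2.02 ± 0.32). Gm14207 was itself lower (-3.20 ± 0.26). The endocytic receptor Ly75 had 249 CPM in both mTEC1 libraries and 24.6 and 29.9 CPM in mTEC2 (-3.12 ± 0.29, limma adjusted p = 0.000864). Tbata (-2.71), Cd83 (-2.44) and Isg20 (-2.18) completed the lower genes.

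The exception was Ly6a, a surface antigen of stem and progenitor cells, with 229 and 96.4 CPM in mTEC1, 1705 and 1163 CPM in mTEC2 and 467 and 512 CPM in mTEC4 (3.23 ± 0.42, limma adjusted p = 0.00296). Of the 11 lower cortical genes, 8 and 4 passed without mTEC1 library 1 and 2, where 2 could not be tested, and 11 passed without either mTEC2 library. Among factors of thymus organogenesis, 3 of 9 tested were lower and 1 higher, against 3.84% and 3.9% of all tested genes. Pax1, which acts with Foxn1 and overlaps AI646519, had 747 and 526 CPM against 197 and 108 CPM (-2.09 ± 0.30). Six4 had 14.1 and 15.8 CPM in mTEC1 and none in mTEC2, at least 3.27-fold lower. Tbx1, a pharyngeal factor, had 4.70 and 0 CPM in mTEC1 and 46.2 and 17.9 CPM in mTEC2 (3.19 ± 0.83). Neither edgeR nor DESeq2 called Tbx1. Six4 reached the minimum level in mTEC1 alone and Tbx1 in mTEC2 alone, so the filter fixed their directions.

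The Psmb11 promoter is shown as that of a Foxn1 target with a steep difference and 2 copies of GACGC, the core that Foxn1 binds. The window is chr14:54625060-54625359 on the plus strand of GRCm38.p6 (RefSeq), from 250 bases before to 50 after the gene's start. Capitals mark the cores, 239 and 62 bases before the start; GCGTC is the same core read from the other strand.
Psmb11: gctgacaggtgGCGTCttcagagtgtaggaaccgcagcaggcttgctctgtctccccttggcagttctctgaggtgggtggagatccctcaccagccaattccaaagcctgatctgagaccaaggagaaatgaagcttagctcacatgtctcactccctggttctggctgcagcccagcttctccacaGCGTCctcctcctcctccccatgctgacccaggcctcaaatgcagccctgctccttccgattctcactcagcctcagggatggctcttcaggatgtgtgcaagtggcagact
The core, searched on both strands, was in 4 of 8 target promoters, those of Psmb11, Ccl25, Cxcl12 and Kitl, in 27.4% of all promoters and in 45.8% of the promoters of all tested genes. The share in the targets was therefore near that of tested genes.

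Aire (chr10:78030022-78043610, minus strand) was also lower in mTEC2, and lower still in mTEC4. It had 434 and 556 CPM in mTEC1, 95.4 and 32.9 CPM in mTEC2 and 33.7 and 24.4 CPM in mTEC4 (-3.09 ± 0.45, limma adjusted p = 0.00414; 0.0644 without mTEC1 library 2). Aire overlaps Dnmt3l on the other strand. Fezf2, a second regulator of tissue antigens in mTEC, had 210 and 207 CPM in mTEC1, 49.2 and 59.8 CPM in mTEC2 and 18.1 and 17.4 CPM in mTEC4 (-1.91 ± 0.39, limma adjusted p = 0.0179). That call was lost without mTEC1 library 1 (adjusted p = 0.113) and without mTEC1 library 2 (0.144). Of 20 tested genes of the Aire stage, 9 were lower and 1 higher (median -1.89), against 3.84% and 3.9% of all tested genes. Fabp5, a fatty acid binding protein of this stage, had 3255 and 4445 CPM against 665 and 834 CPM (-2.35 ± 0.25), and Irf8, an interferon regulatory factor, was lower by a smaller step (-1.16 ± 0.31). Cd40, the receptor through which T cells help mTEC mature, had 149 and 121 CPM against 46.2 and 26.9 CPM (-1.88 ± 0.35). Pigr, which carries antibodies across epithelium, was higher (3.02 ± 0.72). The costimulator Cd80, the chemokine Ccl22 and Cd52 did not pass.

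MHC class II genes, by which TEC display peptides to CD4+ T cells, were lower in 8 of 12 tested cases, against 3.84% of all tested genes. None of these genes was higher, and their median was -2.02. Several of them are also on the Aire stage list. Cd74, the invariant chain, had 8939 and 12954 CPM in mTEC1, 2563 and 1739 CPM in mTEC2 and 3422 and 4426 CPM in mTEC4 (-2.35 ± 0.28, limma adjusted p = 0.00195). The chains H2-Ab1 (-2.45), H2-Eb1 (-2.10) and H2-Aa (-2.07), the peptide editor H2-DMa (-1.97) and its inhibitor H2-Oa (-1.84) were lower too. Ciita, the master regulator of the class, which overlaps Dexi, had 29.8 and 40.3 CPM in mTEC1 and 3.08 and 0 CPM in mTEC2 (-3.65 ± 0.86, limma adjusted p = 0.0303). Summed, the list made up 42170 to 44260 CPM in mTEC1, 6540 to 13230 CPM in mTEC2 and 20570 to 22910 CPM in mTEC4. For 10 of the 12 MHC class II genes both mTEC2 libraries lay below both mTEC1 libraries, against 21.9% of all tested genes. Only 2 of the 8 and 2 of the 9 lower calls passed in all 4 fits without a library; without mTEC1 library 2, 2 passed of each.

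MHC class I genes were split. H2-D1, a classical chain, was higher (1.07 ± 0.26), the immunoproteasome subunits Psmb10 (-1.79 ± 0.28) and Psmb9 (-1.10 ± 0.21) were lower, and the other 11 of 14 tested genes did not pass.

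Tissue-restricted genes were represented by a list of 17 tested members, of which 5 were called lower. All 5 reached the minimum level in mTEC1 alone, so their direction was fixed by the filter and their number is not read as a shift of the list. Gip, a gut hormone, had 50.1 and 70.1 CPM in mTEC1 and no UMI in mTEC2 or mTEC4, at least 13.1-fold lower in mTEC2. Fabp6, an ileal bile acid carrier, had 107 and 121 CPM in mTEC1, 0 and 2.99 CPM in mTEC2 and none in mTEC4 (-5.32 ± 0.87). Ang4, an antimicrobial protein of the gut, had 61.1 and 103 CPM against 0 and 2.99 CPM (-4.82 ± 0.70), and Fabp9 and Crp were lower at smaller levels. Not every such gene was low in mTEC2: Reg3g, a gut lectin, had 649 and 158 CPM in mTEC1 and 1256 and 1545 CPM in mTEC2 (2.11 ± 0.65, limma adjusted p = 0.0795). The summed level of the list, 1403 to 1996 CPM in mTEC1 and 1622 to 1826 CPM in mTEC2, overlapped between the groups.

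Of 13 tested endocrine genes, 3 were called lower, and these too reached the minimum level in mTEC1 alone. Calca, which encodes calcitonin, had 62.7 and 133 CPM in mTEC1, 0 and 2.99 CPM in mTEC2 and 15.6 and 10.4 CPM in mTEC4 (-5.02 ± 0.67, limma adjusted p = 0.00326). The neuropeptide Gal (-3.90 ± 0.72) and gastrin, Gast (-3.28 ± 0.87), were lower as well. Accordingly, the 5 tissue-restricted and 3 endocrine calls could not be tested without an mTEC1 library.

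**Figure D4:**
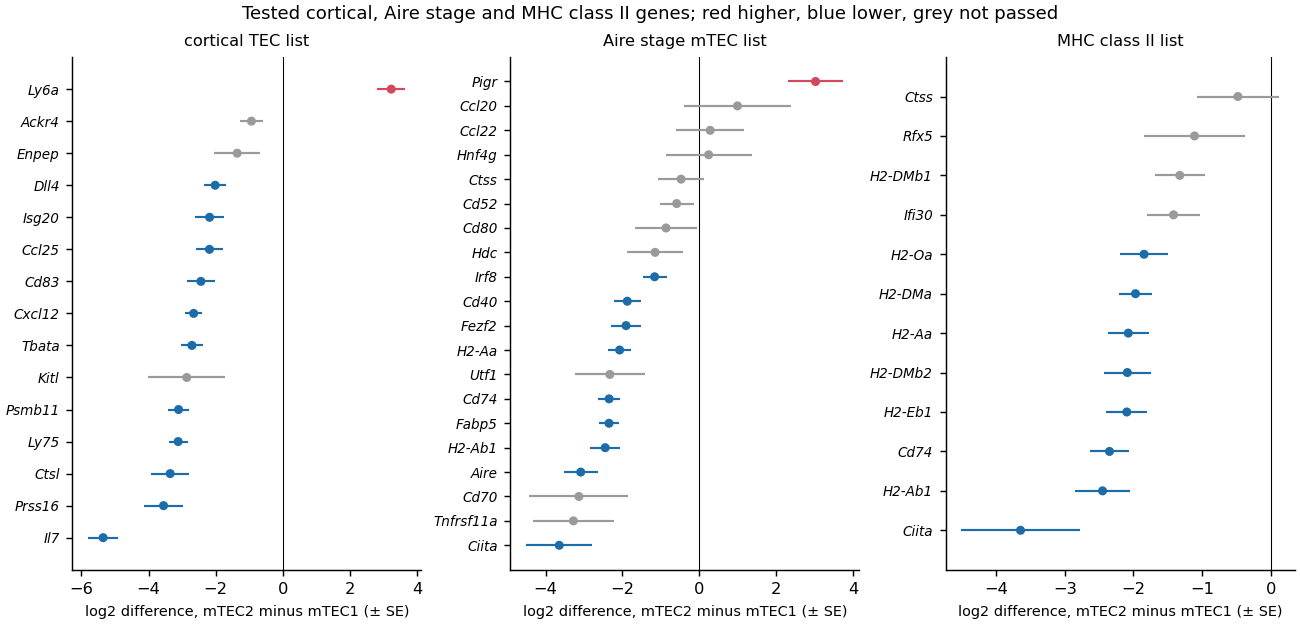
Log2 difference of titled mTEC2 minus titled mTEC1 for every tested cortical, Aire stage and MHC class II gene, with bars of 1 SE; blue marks genes called lower, red genes called higher and grey genes that did not pass. Ly6a and Pigr are the called genes above 0.

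Keratins and junction genes changed in both directions. Krt19 (chr11:100140810-100148665, minus strand), a keratin of simple and progenitor epithelium, had 97.1 and 103 CPM in mTEC1, 1489 and 882 CPM in mTEC2 and 124 and 125 CPM in mTEC4. That difference of 3.49 ± 0.34 (limma adjusted p = 0.00101) passed under all 16 alternatives. The tight junction gene Cldn7 (1.97 ± 0.44) and the epithelial factor Elf3 (2.57 ± 0.63) were also higher, while Krt7 (-1.79 ± 0.27) and Krt8 (-1.03 ± 0.24) were lower besides Krt18. Thus 3 of 10 pan-epithelial genes were higher and 3 lower, against 3.9% and 3.84% of all tested genes. With the 4 compared libraries fitted alone, 1 of these higher calls and 0 of the lower ones remained. Epcam, the surface adhesion protein, had 169 and 128 CPM in mTEC1 and 262 and 311 CPM in mTEC2 (0.95 ± 0.27, limma adjusted p = 0.0583), and did not pass.

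Krt17, a keratin of basal and stressed epithelium, had 3943 and 3912 CPM in mTEC1, 652 and 828 CPM in mTEC2 and 1843 and 1375 CPM in mTEC4 (-2.42 ± 0.22, limma adjusted p = 0.000864). Basal Krt14 had 262 and 277 CPM against 52.3 and 71.7 CPM (-2.10 ± 0.31). Of 15 tested early and junctional mTEC genes, these and the factor Bcl11a were lower and Cldn3 (2.01) was higher. Of all tested genes 3.84% were lower and 3.9% higher. Among 15 tested cornified keratinocyte genes, Dsg1a, a desmoglein, was lower (-2.63) and the others did not pass; Krt10, the keratin of upper epidermal layers, had 29.8 and 31.6 CPM in mTEC1 and 12.3 and 111 CPM in mTEC2 (0.29 ± 0.76, limma adjusted p = 0.86).

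Other mTEC programs were measured by shorter lists. Of 8 tested microfold genes, Spib, a factor these antigen-sampling cells require, was higher, with 114 and 117 CPM in mTEC1 and 483 and 526 CPM in mTEC2 (2.10 ± 0.36). Gp2, their bacterial receptor, had 0 and 1.75 CPM in mTEC1, 154 and 374 CPM in mTEC2 and 296 and 3.48 CPM in mTEC4 (6.61 ± 1.48, limma adjusted p = 0.0246), and lost its call, or could not be tested, without any 1 library. Tnfrsf11b, a decoy receptor for RANK ligand, had 17.2 and 26.3 CPM in mTEC1 and none in mTEC2, at least 4.73-fold lower. Of 6 tested ciliated genes 1 was higher, the dynein chain Dynlrb2 (3.08 ± 0.74), against 3.9% of all tested genes. By edgeR Dynlrb2 was not called. Gp2 and Dynlrb2 reached the minimum level in mTEC2 alone and Tnfrsf11b in mTEC1 alone, so the filter fixed their directions. The single tested ionocyte gene, Slc12a2, did not pass.

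Signalling and stress lists are set against the 3.9% of all tested genes called higher and the 3.84% called lower. In the NF-kB list 3 of 16 tested genes were lower, Cd40, Tnfrsf11b and the kinase Map3k14 (-1.77 ± 0.41), and none higher. In the Notch list 3 of 10 were lower, the ligand Dll4 and the Hes family members Hey1 (-1.94 ± 0.42) and Hes6 (-1.26 ± 0.25), and none higher. Of 14 tested interferon response genes, the regulator Irf7, overlapping Phrf1, was higher, with 202 and 186 CPM in mTEC1 and 1129 and 726 CPM in mTEC2 (2.21 ± 0.31, limma adjusted p = 0.00356). The chemokine Cxcl10, overlapping Art3, was lower (-2.11 ± 0.31). None of 12 tested cell cycle genes and none of 8 glycolysis genes passed, and 1 of 15 stress genes, the immediate early factor Nr4a1, was higher (2.12). For cell cycle genes 0 had an unadjusted p below 0.05 and for glycolysis genes 2, and edgeR and DESeq2 called 0 in each.

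The 10 largest rises among called genes other than predicted genes and pseudogenes were, in descending order, Gp2, Sh2d6, Acta1, Sh2d7, Gpihbp1, Avil, Oas2, Muc5b, Myh8 and Myl1. By the lists, 3 were tuft genes and 3 muscle genes. Gp2, Sh2d6, Sh2d7, Oas2, Muc5b and Myh8 reached the minimum level in mTEC2 alone. The filter fixed their direction, so this ranking is a description. Muc5b, a gel-forming mucin of airway secretory cells, had 7.83 and 0 CPM in mTEC1, 283 and 206 CPM in mTEC2 and none in mTEC4 (5.89 ± 0.85, limma adjusted p = 0.00414). Oas2, an interferon-induced sensor of viral RNA, had no UMI in mTEC1 and 83.1 and 140 CPM in mTEC2, at least 45.2-fold higher, but its call was lost, or could not be tested, without any 1 library.

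The 10 largest falls were Psors1c2, Vmo1, Il7, Fabp6, Gip, Calca, Ccl19, Ang4, Fgf14 and Sptssb. All of them but Psors1c2 reached the minimum level in mTEC1 alone. The filter fixed their direction, so this ranking is a description. Psors1c2, a gene of the cornified skin layer, had 346 and 198 CPM in mTEC1, 12.3 and 0 CPM in mTEC2 and 7.78 and 0 CPM in mTEC4 (-5.73 ± 1.12, limma adjusted p = 0.0144). Ccl19, a chemokine that draws T cells into the medulla, had 144 and 154 CPM in mTEC1, 3.08 and 2.99 CPM in mTEC2 and 18.1 and 90.5 CPM in mTEC4 (-4.98 ± 0.70, limma adjusted p = 0.00381). Its groups were far apart with both mTEC2 libraries at 1 UMI. Vmo1 had 100.3 and 49.1 CPM in mTEC1 and none in mTEC2, at least 16.7-fold lower. Fgf14, a growth factor family member, had 97.1 and 80.7 CPM against 6.15 and 0 CPM (-4.60 ± 0.68), and Sptssb, a subunit of sphingolipid synthesis, had 40.7 and 35.1 CPM against none, at least 8.37-fold lower.

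Calls that held under all 16 alternative settings were 10 higher and 6 lower genes, listed here after their values were seen. The higher ones were Acta1, Ero1lb, Igfbp7, Krt19, Lrmp, Ly6c1, Meg3, Ovol3, Pde2a and Ptpn6. Ero1lb, which forms disulfide bonds in the endoplasmic reticulum of secretory cells, had 29.8 and 26.3 CPM in mTEC1, 342 and 275 CPM in mTEC2 and 5.18 and 10.4 CPM in mTEC4 (3.37 ± 0.43, limma adjusted p = 0.00282). Igfbp7 (3.07 ± 0.35) and Ly6c1 (4.16 ± 0.47), both abundant in endothelium, were high in mTEC4 too. The lower ones were Crip3, Cxcl12, Krt17, Pltp, Ppp1r27 and Tbata. Crip3, a LIM-domain protein first found in thymus, had 2835 and 3567 CPM in mTEC1 and 538 and 353 CPM in mTEC2 (-2.86 ± 0.25, limma adjusted p = 0.000841).

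Endothelial genes were higher in both mTEC2 libraries. Of 16 tested markers 8 were higher, against 3.9% of all tested genes, and none lower (median 3.44). Among the 8, 3 reached the minimum level in mTEC2 alone, so the filter fixed their direction. Of the 16 markers 15 lay wholly above in mTEC2, against 23.6% of all tested genes. Kdr, a receptor for vascular endothelial growth factor, had 0 and 7.01 CPM in mTEC1, 55.4 and 179 CPM in mTEC2 and 104 and 80.1 CPM in mTEC4 (4.70 ± 1.02, limma adjusted p = 0.0218). Gpihbp1, which holds lipoprotein lipase on capillaries, had 3.13 and 33.3 CPM in mTEC1, 455 and 1542 CPM in mTEC2 and 1343 and 818 CPM in mTEC4 (6.00 ± 1.01, limma adjusted p = 0.00776; 0.0607 without mTEC1 library 1). Cdh5 (4.28), Flt1 (4.24), Esam (4.20), Emcn (4.03), Plvap (3.66) and Cldn5 (3.11) were the other called markers. The summed level was 359.5 to 377.5 CPM in mTEC1, 1979 to 7723 CPM in mTEC2, 3217 to 4977 CPM in mTEC4 and 11.2 to 89.3 CPM in the embryonic libraries. In mTEC4 the summed endothelial level lay within the range of the mTEC2 libraries. The endothelial markers were higher in mTEC2 library 2 than in library 1 in 15 of 16 cases. Tuft genes were higher in library 1 in 35 of 42 cases and muscle genes in 26 of 42. With 2 libraries, these orders cannot show what part endothelial markers had in the differences between the groups, which was not tested. Of the 8 calls, 1 and 2 passed without mTEC1 library 1 and 2, and 5 and 4 without mTEC2 library 1 and 2, where 3 could not be tested.

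Markers of other cells were called about as often as genes at large, of which 7.74% were called. Of 15 tested thymocyte genes Cd8a was lower (-2.54) and the others did not pass, with summed levels of 1432 to 1438 CPM in mTEC1 and 1172 to 1258 CPM in mTEC2. None of 14 myeloid genes passed by limma (0 at an unadjusted p below 0.05, 0 by edgeR and DESeq2), at 1377 to 1565 CPM against 1181 to 1923 CPM. Of 13 mesenchymal genes 1 was lower, Myh11, smooth muscle myosin, with 163 and 174 CPM in mTEC1 and 15.4 and 14.9 CPM in mTEC2 (-3.33 ± 0.35, limma adjusted p = 0.00138). Of 5 B cell genes Vpreb3 was higher (3.03), having reached the minimum level in mTEC2 alone. All 5 lay wholly above in mTEC2, against 23.6% of all tested genes. The B cell list summed to 43.8 to 48.6 CPM in mTEC1 and 182 to 188 CPM in mTEC2, and its part was not tested. The erythroid marker Alas2 did not pass. Of 3 tested neural crest and melanocyte genes, Mitf was lower, at least 3.46-fold, and the crest factor Sox10 had 1.57 and 7.01 CPM in mTEC1 and 89.2 and 14.9 CPM in mTEC2 (2.85 ± 0.90, limma adjusted p = 0.0837).

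**Figure D5:**
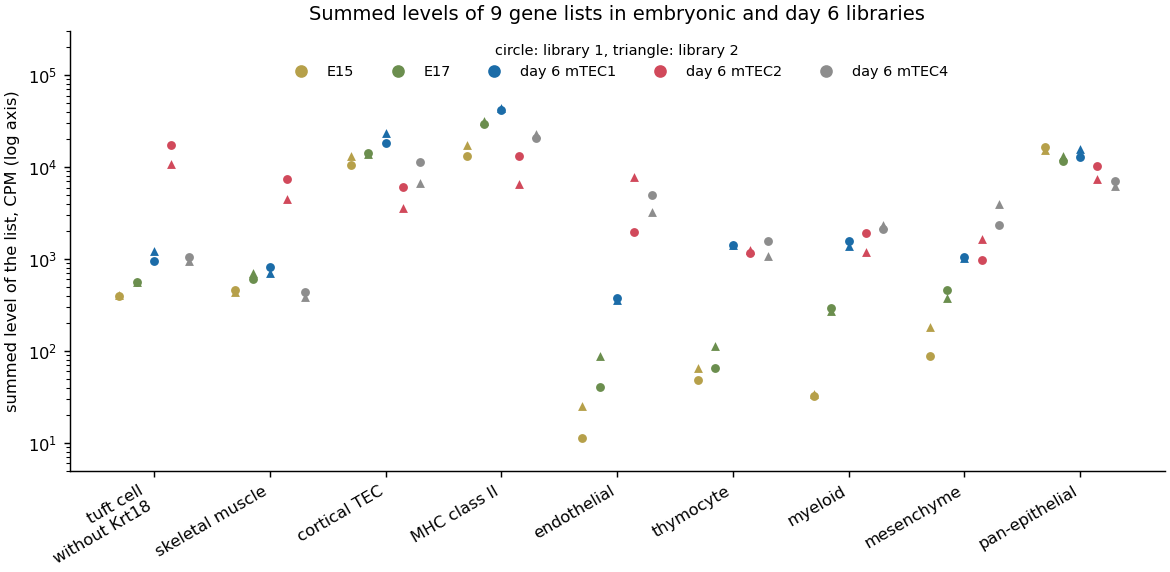
Summed CPM of 9 gene lists (tuft cell without Krt18) in the embryonic day 15, embryonic day 17 and day 6 libraries, 1 point per library, on a log axis. The tuft and muscle sums are highest in the mTEC2 libraries, the cortical and MHC class II sums are lowest there, and the endothelial sum is high in mTEC2 and mTEC4.

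The mTEC2 libraries differed more from each other than the mTEC1 libraries did. The median absolute log2 difference was 0.88 between the mTEC2 libraries and 0.46 between the mTEC1 libraries, and Pearson's r across genes, which are not independent replicates, was 0.659 and 0.877. Library 1 of mTEC2 was the higher one for 12 of 12 MHC class II genes, with a median of 1.04, and for 17 of 20 Aire stage genes, with a median of 1.45. For tuft genes the median of library 1 over library 2 was 0.56.

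The mTEC4 libraries, though not used for the difference, lay on different sides for different lists. They were placed by whether a library fell on the mTEC2 side of the midpoint of the log2 group means. Of the 28 higher tuft genes 27 had neither mTEC4 library on the mTEC2 side, and of 26 higher muscle genes 25 had neither. All 8 higher endothelial genes had both mTEC4 libraries on the mTEC2 side, as did all 5 lower tissue-restricted genes. Of 11 lower cortical genes 7 had neither and 4 had 1 there. Over all 399 higher genes, 252 had neither, 53 had 1 and 94 had both, and over 393 lower genes, 193, 94 and 106.

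Genes whose levels were most like those of Trpm5 over the 10 embryonic and day 6 libraries were Matk (Pearson's r of log2 levels 0.990), Dnm2 (0.986), Lrch4 (0.984), Fxyd6 (0.981) and Dusp27 (0.980). Those most like Acta1 were Asb11 (0.989), Rasgrf2 (0.988), Vav1 (0.987), Cela2a (0.984) and Cbln4 (0.983). Both sets are led by the pair of mTEC2 libraries in which these genes are high, and the values are descriptions over libraries that differ in depth. Fxyd6, a regulator of the sodium pump, had 17.2 and 56.1 CPM in mTEC1 and 812 and 511 CPM in mTEC2 (4.29 ± 0.70). The ubiquitous dynamin Dnm2 had 150 and 230 CPM against 400.1 and 368 CPM (1.04 ± 0.28).

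The same titles at 6 weeks, 4 libraries each, gave no called gene: 0 of 12010 tested genes passed by limma, with 56 at an unadjusted p below 0.05, and 0 by edgeR (95) and DESeq2 (130). With a block on the number in the title, 0 passed as well (231). In simulated data the 6-week fit recovered 37 of 100 genes changed 8-fold and 1 of 100 changed 2-fold, so the count of 0 does not show that the titles are alike at 6 weeks. The test of whether the difference between the titles changed from day 6 to 6 weeks called 0 of 12824 genes (525 at an unadjusted p below 0.05; edgeR 0 and 562), although without the day 6 mTEC2 library 1 it called 43. In simulated data that test recovered 0 of 100 genes changed 8-fold, so its count says nothing about whether the ages differ. At 6 weeks the libraries of a title were unlike each other. Trpm5 had 1.31, 72.0, 0 and 0 CPM in the libraries titled mTEC1 with the numbers 189, 191, 195 and 196, and 8.78, 62.0, 1689 and 10.3 CPM in those titled mTEC2 (log2 difference 3.57 ± 1.70). Acta1 had 0, 15.2, 0 and 0 CPM and 18.8, 2.38, 269 and 0 CPM in the same order. Aire had 148, 2156, 30.4 and 3.42 CPM in mTEC1 and 95.3, 2486, 46.6 and 27.8 CPM in mTEC2. Trpm5 and Acta1 were thus highest in the mTEC2 library numbered 195, and Aire in both libraries numbered 191, whatever the title. Of the genes higher at day 6, 332 were tested at 6 weeks and 234 had a difference above 0 (median 0.41), against 7399 of 12010 tested genes (median 0.16). The tuft list summed to 40340 CPM in the 6-week mTEC2 library numbered 195. It summed to 3425, 4296 and 7833 CPM in those numbered 189, 191 and 196. The part of library 195 in the count of 234 was not tested. Of those lower at day 6, 208 of 381 also had a difference above 0 (median 0.04).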

How the data were processed

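Sorted cells were profiled by bulk MARS-seq; per the labels' protocols Liberase TH with DNase released the cells and Dynabeads captured their RNA. The submitters' processing notes list STAR 2.4.2a, HTSeq, cutadapt, bcl2fastq and DESeq2, with mm10 as the build, and give no role or order. The deposited table holds a normalized signal for 15273 gene symbols in 33 libraries, each summing to 100, so a value is a library's UMI share in percent. No source used here states the authors' scaling. The plan had assumed normalized UMIs; the shares were multiplied by the median library total (570253 UMIs) instead. Low values were whole multiples of 1 step (tolerance 0.01) in 33 of 33 libraries, which gave whole UMIs and totals of 98670 to 1732688. No column lacked a sample. Intervals and floors of 3 UMIs cover counting error only.

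Groups follow the titles. A gene needed 5 normalized UMIs or more in 2 of the 4 compared libraries and was then tested with limma 3.58.1 (R 4.3.3; log2(value + 1), intensity trend, two-sided, Benjamini-Hochberg adjusted p below 0.05). The 10 embryonic and day 6 libraries shared 1 estimate of the spread. The 6-week pair and the age interaction were fitted alike. Gene symbols were matched to GENCODE M21 on GRCm38 (14991 found) and promoters to RefSeq GRCm38.p6. The genes named are Foxn1, Psmb11, Prss16, Aire, Fezf2, Krt10, Dclk1, Trpm5, Avil, Pou2f3, Acta1, Myog, Epcam and Kdr, the 10 largest rises and falls, up to 6 members of each of 29 lists, any tuft, muscle, cortical, Foxn1 target or Aire stage member, and the 5 genes most like Trpm5 and Acta1; a gene that meets this rule is not reported here, though counts include it. Members and lists were chosen with earlier results of these data known; 4 further lists were chosen after their values were seen.

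Alternatives were other pseudocounts (0.5, 5), no filter or one requiring a mean of 10, scaling by median of ratios or trimmed mean, robust moderation, fits of fewer libraries, a replicate block, leaving out each library, and edgeR 4.0.16 and DESeq2 1.42.0 on the recovered UMIs. The count tests left out embryonic day 17 library 2, whose step could not be verified as whole UMIs. Deviations from group means correlated by 0.05 at day 6. With 2 libraries per group, that value cannot show whether equal numbers mark paired libraries. For the 4 numbers shared at 6 weeks they correlated by 0.159 to 0.732. There, libraries of a number could share marker levels across titles. The cortical list summed to 23910 and 27350 CPM in mTEC1 and mTEC2 of number 196. The tuft list summed to 4794 and 40340 CPM in those of number 195. The correlations therefore do not show that equal numbers mark paired replicates. In simulated data the day 6 fit recovered 88 of 100 genes changed 8-fold and 5 of 100 changed 2-fold, with 7 of 9713 tested genes called wrongly. The simulation gave all groups the same spread per gene. It changed only genes expected at 10 or more normalized UMIs in each compared library. Its counts therefore do not cover the wider spread of the mTEC2 libraries or genes that reached the minimum level in 1 group alone. Tables and plots were made in Python 3.11.15 (pandas 2.3.3, numpy 2.4.6, matplotlib 3.10.9, scipy 1.17.1).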

Additional observations from a re-analysis of the deposited data

Results flagged for a closer look

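At 6 weeks, 9 of the values followed had 1 of the 4 libraries of a title far from the others by Dixon's criterion, which chance meets in about 1 in 20 groups. Trpm5 reached 72.0 CPM in the mTEC1 library numbered 191 and 1689 CPM in the mTEC2 library numbered 195. Acta1 reached 15.2 CPM in the mTEC1 library 191 and 269 CPM in the mTEC2 library 195. Aire reached 2156 CPM in the mTEC1 library and 2486 CPM in the mTEC2 library with the number 191. Psmb11 reached 192 CPM and 203.0 CPM in the mTEC1 and mTEC2 libraries with the number 196. Kdr reached 172 CPM in the mTEC1 library 195. The libraries that stood apart shared a number rather than a title for Aire and Psmb11.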

How the results depend on the processing

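At day 6 the count of called genes was 792. It was 422 by edgeR, 496 by DESeq2, 28 when the 4 compared libraries were fitted alone and 132 with the 6 day 6 libraries; the last pair of fits has fewer libraries to estimate the spread, and for edgeR and DESeq2 the cause was not tested. Other settings gave 579 to 1074 calls. Leaving out 1 library gave 112 (without mTEC1 library 2) to 2338 (without mTEC2 library 1) calls at day 6, 0 to 43 for the age interaction and 0 to 0 for the 6-week pair. In the lists these fits gave 11 to 19 higher tuft genes, 7 to 14 higher muscle genes, 4 to 13 lower cortical genes, 2 to 12 lower MHC class II genes and 1 to 12 higher endothelial genes. edgeR called 15 muscle genes higher. Of 104 called named genes, edgeR lost 22, DESeq2 11, the 4 libraries alone 90 and the 6 alone 58, and the fits without a library 1 to 63.

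Cd24a reversed: without mTEC2 library 1 it was lower in mTEC2 (-2.05, limma adjusted p = 0.00507), and without mTEC2 library 2 higher (3.53, 0.000832); the cause was not tested. With a replicate block on the library number, whose meaning the labels do not give, 674 genes were called, 652 of them shared with the 792. In the last 150 bases of the promoter window the E-box was in 26.3% of muscle and 9.3% of all promoters, the octamer in 0.814% and the Foxn1 core in 18.6% of all promoters, as a shorter window holds fewer matches.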

Other observations

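The gene lists described here were put together after their values had been seen, so their counts are descriptions only, to be set against 3.9% of all tested genes called higher and 3.84% called lower. Genes of airway secretory and mucous cells were higher in mTEC2 in 13 of 19 tested cases of 24 listed, against 3.9% of all genes. They were lower in none, with a median log2 difference of 3.25. Among the 13, Muc4, Muc5b, Muc20, Agr2, Spdef and Pigr reached the minimum level in mTEC2 alone. The filter fixed their direction, so the count is not read as a shift of the list. Bpifa1, an antimicrobial protein of airway epithelium, had 92.4 and 84.2 CPM in the mTEC1 libraries and 4838 and 1805 CPM in the mTEC2 libraries (5.04 ± 0.98, limma adjusted p = 0.0141). Wfdc2, a secreted protease inhibitor of airways, had 407 and 107 CPM against 4062 and 2780 CPM (3.99 ± 0.51, limma adjusted p = 0.00292). Cyp2f2, a cytochrome of club cells, had 6.27 and 21.0 CPM against 523 and 356 CPM (limma adjusted p = 0.00296). The mTEC2 libraries lay above both mTEC1 libraries for all 3. Spdef, the factor that directs mucous differentiation, had no UMI in mTEC1 and was at least 6.11-fold higher in mTEC2 over a floor of 3 UMIs per group. Lactoferrin, Ltf (4.82), the mucin chaperone Agr2 (4.26) and mesothelin, Msln (3.33), were higher too. The club cell secretoglobin Scgb1a1 did not pass, with 23.5 and 3.51 CPM against 58.5 and 5.98 CPM.

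Imprinted genes that are high in fetal and neonatal tissue were higher in 5 of 14 tested cases (all genes: 3.9%) and lower in 1 (3.84%), with a median of 1.63. H19, a noncoding RNA, had 331 and 207 CPM in mTEC1, 1400 and 1757 CPM in mTEC2 and 664 and 864 CPM in mTEC4 (2.58 ± 0.30, limma adjusted p = 0.00188). Meg3, a further noncoding RNA, had 56.4 and 31.6 CPM in mTEC1 and 655 and 855 CPM in mTEC2 (4.09 ± 0.41, limma adjusted p = 0.00101). The growth factor Igf2 (2.05), the cycle inhibitor Cdkn1c (2.47) and the adaptor Grb10 (1.72) were higher and Impact (-2.75) was lower. Endothelial markers, which moved the same way between the groups, were not tested for their part.

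Genes of serine, glycine and one-carbon metabolism were lower in 7 of 16 tested cases (all genes: 3.84%) and higher in none, with a median of -1.80. Among the 7, Tdh reached the minimum level in mTEC1 alone. Phgdh, the entry enzyme of serine synthesis, had 373 and 372 CPM in mTEC1, 89.2 and 114 CPM in mTEC2 and 174 and 164 CPM in mTEC4 (-1.87 ± 0.24, limma adjusted p = 0.00282). Aldh1l1, a folate dehydrogenase, had 130 and 167 CPM against 9.23 and 2.99 CPM (-4.37 ± 0.57, limma adjusted p = 0.00296). Both were lower in each mTEC2 library than in any mTEC1 library. Gcat (-2.58), Psat1 (-1.94) and Cth (-2.98) were also lower, while the mitochondrial enzymes Shmt2 and Mthfd2 did not pass. Of 19 late cornified envelope genes, 15 were below the filter and 4 entered through mTEC1 alone, so no direction is read from them; Lce3d had 34.5 and 54.4 CPM in mTEC1 and 3.08 and 0 CPM in mTEC2.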
